A study of Mus musculus with 4 samples.

Results

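The testis ADAM genes examined here are 10 mouse genes that encode members of the ADAM family: Adam1a, Adam1b, Adam2, Adam3, Adam5, Adam18, Adam24, Adam25, Adam30 and Adam32. They were chosen by name, with earlier results of these data known, and make up 10 of the 37718 gene rows, 106 of the 207562 introns and, without a row that is joined to a neighbouring gene, 296 of the 605144 exon segments and junctions counted. Intron 1 of Adam3 was added because its use differed between the genotypes in these same samples. Its values, and those of the other Adam3 introns in that contrast, are therefore given as a description with no test.

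RNA-seq counts came from hCD4+ cells taken from testes of Tdrd6+/- and Tdrd6-/- mice at 20 days post partum (dpp), with 2 samples of each genotype and at least 4 mice pooled in each. Both genotypes carry human CD4 under the endogenous Tdrd6 promoter, and the cells that display it were collected on magnetic beads, which gave diplotene-rich late prophase I spermatocytes. The controls are heterozygous, so no sample had 2 intact copies of Tdrd6. The comparison asks how the loss of TDRD6, a tudor domain protein of the chromatoid body, alters transcript levels and splicing in these cells.

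ADAM proteins ("a disintegrin and metalloprotease") are membrane proteins with a prodomain, a metalloprotease domain and a disintegrin domain. Several of them are made only in male germ cells, are assembled with the help of chaperones of the endoplasmic reticulum, and end up on the sperm surface. ADAM1 and ADAM2 form the heterodimer fertilin, and mouse sperm that lack ADAM3 on their surface fail to pass from the uterus into the oviduct. A metalloprotease domain can cut proteins only if it keeps the histidines and the glutamate of its zinc site, and a number of ADAM proteins have lost them.

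The 10 genes differ in the zinc site. The coding sequences of Adam1a, Adam1b, Adam24, Adam25 and Adam30 hold the complete zinc-binding motif of metalloproteases (5 of 10), which was found in 68 of 22527 genes with an annotated coding sequence (0.302%) and in 20 of 33 genes named Adam with a number. In Adam2, Adam3, Adam5, Adam18 and Adam32, the aligned window kept 0 of the 4 zinc-site residues. The windows of 33 bases are shown because they tell the members with a complete zinc site from those without it. They were read from GENCODE M21 transcripts (GRCm38, the build of the counts), run 5′ to 3′ on the coding strand, and the capitals mark the codons of the 4 zinc-site residues or the codons aligned to them.
Adam1a (chr5:121520089-121520121, minus strand): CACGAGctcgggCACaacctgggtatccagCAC
Adam1b (chr5:121501937-121501969, minus strand): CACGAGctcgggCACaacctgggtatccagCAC
Adam24 (chr8:40680518-40680550, plus strand): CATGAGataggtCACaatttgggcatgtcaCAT
Adam25 (chr8:40754761-40754793, plus strand): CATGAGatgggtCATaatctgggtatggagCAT
Adam30 (chr3:98161861-98161893, plus strand): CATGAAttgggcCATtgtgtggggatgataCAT
Adam2 (chr14:66053841-66053873, minus strand): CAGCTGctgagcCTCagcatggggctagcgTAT
Adam3 (chr8:24707418-24707450, minus strand): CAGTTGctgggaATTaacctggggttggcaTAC
Adam5 (chr8:24806449-24806481, minus strand): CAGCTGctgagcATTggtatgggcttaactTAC
Adam18 (chr8:24647848-24647880, minus strand): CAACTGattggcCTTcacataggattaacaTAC
Adam32 (chr8:24901501-24901533, minus strand): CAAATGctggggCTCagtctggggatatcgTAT
The Adam1a and Adam1b windows are identical, and these paralogs share long stretches. Of the 50-base stretches of the Adam1a transcript, 51.9% also occur in other genes, namely Adam1b and Gm42878, with no separate count for each. Of those of Adam1b, 32.4% occur in Adam1a. For Adam25 the share is 34.2%, with Adam39 and Adam20 among the genes that hold the same stretches. How fragments from such stretches were assigned is not given in the sources used here, so the counts of these 3 genes are uncertain. The share was 2.24% for Adam3 and 0 for each of the other members.

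Each library held 26454326 to 31388750 gene counts and 9603669 to 13937818 intron counts. Introns took 31.0% and 27.1% of the tallied fragments of Tdrd6+/- replicates 1 and 2 and 27.4% and 21.9% of those of Tdrd6-/- replicates 1 and 2, so that the share of intronic RNA was lowest in a Tdrd6-/- sample and highest in a Tdrd6+/- sample, and it is given again beside the intron results. Tdrd6 stood at 1269 and 1412 CPM (counts scaled by the TMM-adjusted library total) in Tdrd6+/- against 11.4 and 12.5 CPM in Tdrd6-/- samples, as the labels require. Summed over 8 markers, late meiotic prophase genes reached 4373 to 4381 CPM in Tdrd6+/- and 4268 to 4462 CPM in Tdrd6-/- samples. Of these 8, Sycp1, a synaptonemal complex gene, was called higher (log2 0.60, edgeR adjusted p = 0.0467) and Piwil1, a gene of the piRNA pathway, was called lower in Tdrd6-/- (log2 -0.44, edgeR adjusted p = 0.0773). Over all genes tested, 4.8% were called in either direction. The 10 spermatid markers together gave 19.5 and 29.5 CPM in the Tdrd6+/- samples against 36.9 to 42.3 CPM in the Tdrd6-/- samples. The 7 spermatogonial and early meiotic markers ranged from 20.5 to 21.5 CPM and from 25.4 to 29.3 CPM, 6 Sertoli cell markers from 37.9 to 42.3 and from 41.6 to 48.5 CPM, 5 Leydig cell markers from 17.1 to 21.2 and from 19.8 to 22.1 CPM, and 4 blood and macrophage markers from 3.90 to 4.56 and from 3.44 to 5.98 CPM, each in Tdrd6+/- and Tdrd6-/- in that order.

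Most testis ADAM genes were strongly expressed at this stage in both genotypes. Divided by exon length, so that genes can be compared, Adam5 led with 501 to 554 CPM per kb over the 4 samples and ranked 34 among 16223 genes. Adam2, which encodes fertilin beta, followed with 370 to 398 CPM per kb (rank 63). Adam3, which encodes cyritestin, had 299 to 359 CPM per kb (rank 74), and Adam32 had 286 to 327 CPM per kb (rank 80). The ranges of Adam3 and Adam32 overlapped, while every other neighbouring pair in the order was separated in all 4 samples. Adam18 reached 83.2 to 92.1, Adam1b 53.7 to 69.4 and Adam30 32.6 to 39.8 CPM per kb. The testases Adam24 and Adam25 lay far below, at 1.06 to 2.57 and 0.16 to 0.78 CPM per kb.

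**Figure D1:**
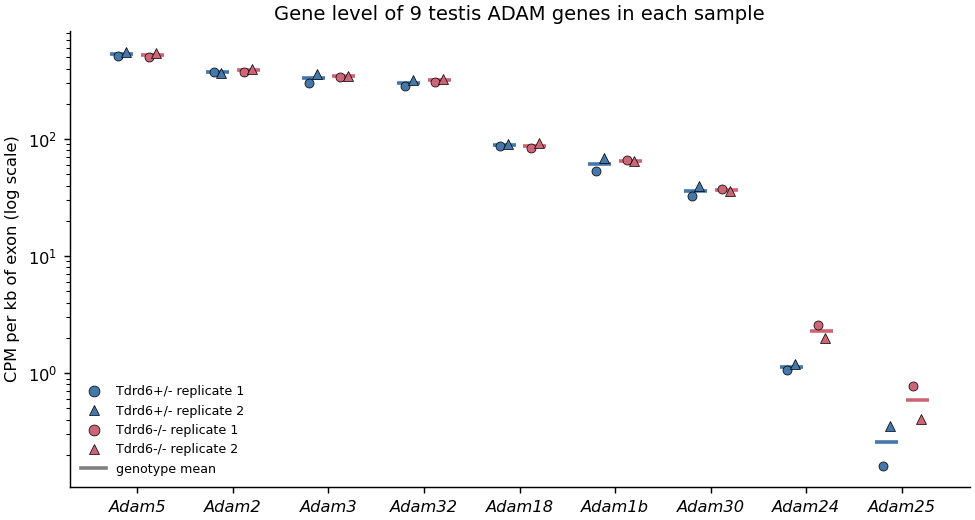
Gene level in CPM per kb of exon on a log axis for 9 members (Adam1a, whose row is joined to Mapkapk5, is left out), ordered by mean level; each point is 1 sample and each bar is the mean of the 2 samples of a genotype. Adam5 to Adam30 sit at like levels in both genotypes, while both Tdrd6-/- points of Adam24 and of Adam25 lie above both Tdrd6+/- points.

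Of the 10 gene rows, all of which were tested, only Adam24 passed the threshold of 0.1 on the false discovery rate (FDR), with higher expression in Tdrd6-/- samples (edgeR's quasi-likelihood test, Benjamini-Hochberg adjustment over all genes). Over all 16555 genes tested, 4.8% were called in either direction and 1.02% were called higher in Tdrd6-/-. Adam24 encodes testase 1, a protease of the sperm surface. Counts of 80 and 97 for Tdrd6+/- stood against 235 and 185 for Tdrd6-/- samples, or 3.05, 3.48, 7.43 and 5.78 CPM. Both Tdrd6-/- samples were above both Tdrd6+/- samples. The fold change was 2.02 (log2 1.01, SE 0.25, adjusted p = 0.0279). The call was lost without Tdrd6+/- replicate 1 (log2 0.93, edgeR adjusted p = 0.135), without Tdrd6-/- replicate 1 (log2 0.82, adjusted p = 0.185) and when genes with few counts were kept in the test (adjusted p = 0.230), with the direction kept each time.

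Adam25, which encodes testase 2 and lies on the same strand of chromosome 8 as Adam24, was read 11 and 26 times in Tdrd6+/- against 65 and 34 times in Tdrd6-/- samples. The groups did not overlap, but the difference did not pass the test (log2 1.19, SE 0.43, edgeR adjusted p = 0.174). It passed without Tdrd6-/- replicate 2 (log2 1.60, edgeR adjusted p = 0.0461), the sample with the lower of both Tdrd6-/- counts.

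Of the 10 spermatid markers, 6 had enough counts to be tested and 2 were called, both higher in Tdrd6-/-, while Tssk6, Odf1, Akap4 and Gapdhs were not (log2 0.15 to 0.73, smallest edgeR adjusted p 0.142). Over all genes tested, 1.02% were called higher. Acrv1, an acrosomal protein gene, had 2.94 and 5.71 CPM in Tdrd6+/- and 9.39 and 7.53 CPM in Tdrd6-/- samples (log2 0.96, edgeR adjusted p = 0.0565), and Spaca1, another acrosomal gene, had 5.96, 7.11, 11.9 and 11.4 CPM in the same order (log2 0.83, edgeR adjusted p = 0.0359). The defining genes of late spermatids were near zero: Prm1 was at 0 counts in 3 samples and at 4 in Tdrd6-/- replicate 2, Tnp2 had at most 4 counts in any sample, and Tnp1 had 0, 3, 10 and 9 counts. The part of such cells in the Adam24 difference was not tested. In cell counts of such preparations, the paper reported no significant genotype difference in diplotene cells, secondary spermatocytes or round spermatids. Whether the sequenced samples were among those counted is not stated. In RNA of a mixed preparation, more cells of a type and more RNA per cell cannot be told apart.

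The other 8 rows differed by -0.03 to 0.13 on the log2 scale (SE 0.13 to 0.15), with the smallest edgeR adjusted p at 0.793. Adam2 had 1012 and 995 CPM in Tdrd6+/- and 1002 and 1070 CPM in Tdrd6-/- samples (log2 0.05). Adam1b, which encodes the fertilin alpha of the sperm surface, had 179, 232, 220 and 217 CPM in that order (log2 0.09). In both genes the values of the genotypes interleaved.

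Adam3 stood at 879 and 1057 CPM in Tdrd6+/- and at 1003 and 1024 CPM in Tdrd6-/- samples (log2 0.07). Adam5 had 1614 and 1735 against 1569 and 1705 CPM (log2 -0.03). Adam32 had 855 and 961 against 926 and 978 CPM (log2 0.07). None of these ranges separated the genotypes.

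Adam18 had 206 and 216 CPM in Tdrd6+/- and 196 and 217 CPM in Tdrd6-/- samples (log2 -0.03), and Adam30 had 115 and 141 against 131 and 128 CPM (log2 0.02). Adam1b and Adam30 each have a single counted exon segment and no counted intron, so that splicing could not be examined in them. The single introns of Adam24 and Adam25 had 3, 8, 12 and 4 counts and 1, 2, 6 and 8 counts in the same order of samples, too few to test.

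Adam1a, the partner of ADAM2 in the endoplasmic reticulum of germ cells, was counted only in a row joined to Mapkapk5, an overlapping kinase gene on the same strand. The joined row had 41.9 and 39.2 CPM in Tdrd6+/- and 44.8 and 43.8 CPM in Tdrd6-/- samples (log2 0.13, SE 0.15, edgeR adjusted p = 0.793). If its segments are numbered along the chromosome, as the other members' introns are, exon segments 2 and 3 fall in the coding exon of Adam1a. This placement is uncertain, since Adam1a has 1 counted intron against 14 annotated gaps and could not be matched by order. Segment 2 had 19 and 29 counts in Tdrd6+/- and 61 and 47 in Tdrd6-/- samples, and segment 3 had 42, 63, 144 and 92 counts. Joined rows were left out of the test of segments, so no test was made. Both segments were picked from the 39 exon segments of the row after their values were seen. The next one, segment 4, had 26, 31, 34 and 28 counts in the same order, with overlap. Counts of Adam1a are uncertain as well, since 51.9% of the stretches of its transcript occur in other genes, Adam1b among them. The only row given as an Adam1a intron holds the same counts as segment 2 in all 4 samples, so it is no separate measure of an intron. Whether segment 2 is coding or intronic is therefore uncertain.

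Genes around the group were read from 3 lists of the same fit. Among 10 further ADAM genes of the testis, 9 were tested and none was called, by edgeR or by DESeq2, while 8 of the 9 had a positive log2 fold change, against 51.7% of all genes tested. An unadjusted p under 0.05 in that direction was found for 5 by edgeR, against 4.58% of all genes tested. The genes of the list are not independent of each other, so the comparisons with all genes are a description. The median was 0.97, against 0.01 over all 16555 genes tested, and the whole list summed to 10.4 and 12.9 CPM in Tdrd6+/- and to 19.6 and 12.97 CPM in Tdrd6-/- samples. Its most expressed genes were Adam26a, at 1.60, 2.69, 4.71 and 3.12 CPM (log2 0.86, edgeR adjusted p = 0.167), and Adam4, the only one with a negative value, at 3.90, 3.27, 2.81 and 1.16 CPM (log2 -0.85, edgeR adjusted p = 0.230). Several of these genes are near copies of each other and of Adam25, so they may share fragments. A low gene can also pass the count filter through its higher group, and which of these genes did so was not examined. The 8 of 9, the 5 and the median of 0.97 therefore give no support for a shift of the list.

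ADAM genes of wider or other tissue expression showed no call among 10 tested of 14 by edgeR or DESeq2, and the smallest unadjusted p of edgeR was 0.200. Their median log2 fold change was -0.13. Adam17, the sheddase of tumour necrosis factor, had 44.6 and 36.6 CPM in Tdrd6+/- and 40.5 and 39.7 CPM in Tdrd6-/- samples, and Adam10, a sheddase of Notch receptors, had 11.2, 10.6, 11.4 and 8.66 CPM.

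Of 21 chaperones, processing enzymes and partners of sperm surface ADAM proteins, 19 were tested, 2 were called higher and 1 was called lower in Tdrd6-/-, with a median of 0.15. Over all genes tested, 4.8% were called in either direction and 1.02% were called higher. Clgn, which encodes calmegin, the chaperone through which fertilin is assembled, was the most expressed of the list and was lower: it had 932 and 965 CPM in Tdrd6+/- and 614 and 557 CPM in Tdrd6-/- samples (log2 -0.70, SE 0.13, edgeR adjusted p = 0.00269). Pdilt, a testis protein disulfide isomerase that works with ADAM3, was higher, from 2.63 and 3.88 to 7.40 and 4.94 CPM (log2 0.92, edgeR adjusted p = 0.0777). Galntl5, a testis relative of the enzymes that start O-glycan chains, rose from 0.88 and 1.15 to 3.76 and 3.28 CPM (log2 1.79, SE 0.32, edgeR adjusted p = 0.002). In all 3 genes, which were named because they were called, the genotypes did not overlap. Cmtm2a, needed for ADAM3 on sperm and the second most expressed, was counted in a joined row and had 627, 807, 713 and 820 CPM (log2 0.10).

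**Figure D2:**
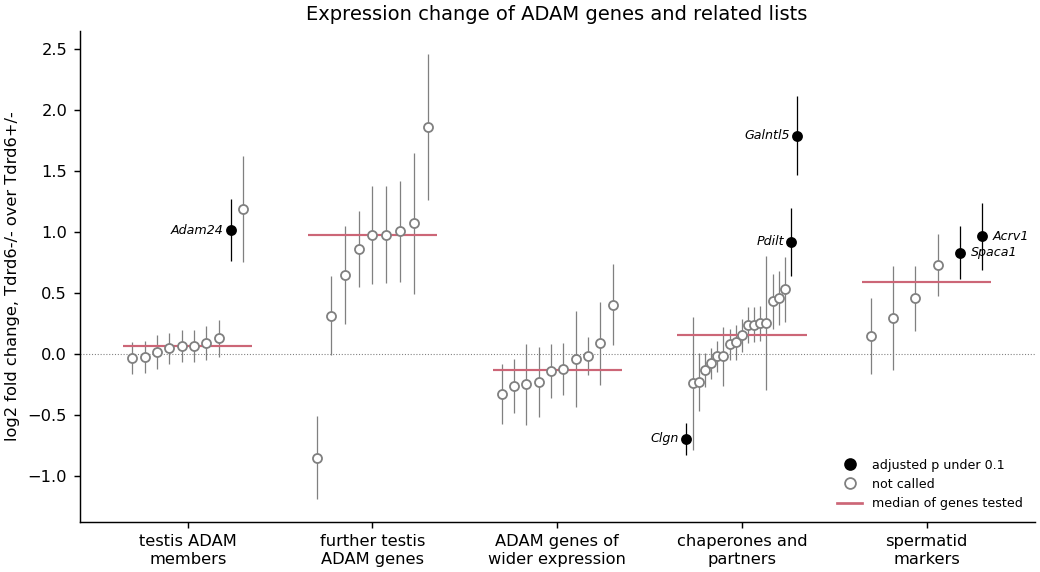
Log2 fold change of Tdrd6-/- over Tdrd6+/- for each tested gene of the 10 members, the 3 related lists and the spermatid markers; error bars are SE, filled points have an edgeR adjusted p under 0.1 and the red line is the median of the genes tested. Of the further testis ADAM genes, several of them near copies of each other, 8 of 9 lie above zero with none called. Low genes such as these can pass the count filter through their higher group. Adam4 lies below it (-0.85). The members other than Adam24 and Adam25 lie between -0.03 and 0.13, and Clgn is the called gene below zero.

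Introns were compared next, since reads on introns include those of unspliced RNA. Adam3, Adam5, Adam18 and Adam32 are neighbours on the minus strand of chromosome 8 (chr8:24602246-24948804), and together with Adam2 on chromosome 14 they hold 103 of the 106 introns. The file numbers introns along the chromosome, so that on the minus strand intron 1 is the last of the transcript.

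The intron reads of Adam18 fell relative to its gene count in Tdrd6-/- samples. All Adam18 introns together had 1.16 and 0.820 counts per gene count in Tdrd6+/- samples and 0.626 and 0.406 in Tdrd6-/- samples. The lowest Tdrd6+/- sample was above the highest Tdrd6-/- sample. The whole library showed part of the same drift, with 0.527 and 0.419 intron counts per gene count in Tdrd6+/- and 0.425 and 0.306 in Tdrd6-/- samples. Divided by the library's own value, Adam18 stood at 2.21 and 1.96 in Tdrd6+/- and at 1.47 and 1.33 in Tdrd6-/- samples, which again did not overlap. In the fit with size factors for both kinds of count, the log2 fold change was -0.67 (SE 0.20, adjusted p = 0.0391, likelihood ratio test in DESeq2), and 2.63% of the 5177 genes tested were called lower. Without Tdrd6+/- replicate 1 the value was -0.48 (DESeq2 adjusted p = 1.00), without Tdrd6-/- replicate 1 it was -0.78 (adjusted p = 0.103) and without Tdrd6-/- replicate 2 it was -0.57 (adjusted p = 1.00), so that the call needed all but Tdrd6+/- replicate 2.

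Adam32 showed a like picture that did not pass the test. It had 0.577 and 0.312 intron counts per gene count in Tdrd6+/- and 0.262 and 0.205 in Tdrd6-/- samples (log2 -0.59, SE 0.24, DESeq2 adjusted p = 0.192), and Tdrd6+/- replicate 1 stood apart from the other 3 samples. Without Tdrd6+/- replicate 2 the difference passed (log2 -0.98, DESeq2 adjusted p = 0.0105), and the Tdrd6+/- level then rests on replicate 1 alone.

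Adam2 had 0.377 and 0.301 against 0.259 and 0.233 intron counts per gene count, and Adam5 had 0.206 and 0.164 against 0.157 and 0.143. In neither did the genotypes overlap, but relative to the library's own value they did, and neither was called (log2 -0.18 and -0.01, DESeq2 adjusted p = 0.775 and 0.987). Adam3 had 0.478 and 0.312 against 0.315 and 0.254, with overlap (log2 -0.17, DESeq2 adjusted p = 0.806). For single genes an exact permutation test of 2 against 2 samples, two-sided, cannot go below 0.33, which is the value reached by Adam2, Adam5, Adam18 and Adam32. The share of all genes whose intron totals separated the genotypes in this way was not counted, so these separations are a description. Among single introns of all genes with at least 10 counts, 29.1% had both Tdrd6-/- values below both Tdrd6+/- values per gene count.

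**Figure D3:**
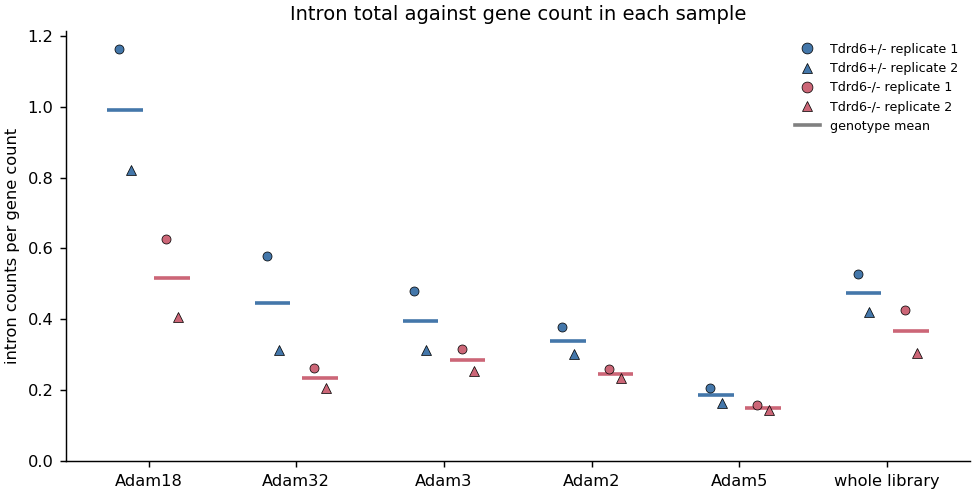
Summed intron counts per gene count for the 5 members with many introns and for the whole library; points are samples and bars are genotype means. Adam18 shows the widest gap between genotypes (1.16 and 0.820 against 0.626 and 0.406), and the whole library drifts the same way.

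Within the gene, the intron that led to the choice of Adam3 lies at the far end of the transcript. Adam3 intron 1 (chr8:24677392-24680706, minus strand, GRCm38) is the last of 22 introns. The stretch of 15 exon bases on each side of it lies partly or wholly outside the coding sequence of transcript Adam3-201. Counts of the intron were 481 and 424 in Tdrd6+/- against 723 and 728 in Tdrd6-/- samples. Of all intron counts of Adam3, these were 4.37% and 4.61% for Tdrd6+/- (4.49% ± 0.18, SD, n = 2) and 7.25% and 8.74% for Tdrd6-/- samples (7.99% ± 1.05, SD, n = 2). Against the other introns of Adam3, its use was higher by 0.88 on the log2 scale (SE 0.17). The intron was chosen for this change, and the SE does not reflect that choice.

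The size of the difference depended on what the intron was measured against. Per 1000 gene counts of Adam3, the intron stood at 20.9 and 14.4 in Tdrd6+/- against 22.8 and 22.2 in Tdrd6-/- samples. The groups still did not overlap, but Tdrd6+/- replicate 1 came close to the Tdrd6-/- samples, and the log2 ratio of the means dropped from 0.83 for the share to 0.35. The junction that joins the exons on either side of the intron had 664 and 1124 counts in Tdrd6+/- and 1062 and 1048 in Tdrd6-/- samples. Intron counts per junction count were then 0.724 and 0.377 in Tdrd6+/- and 0.681 and 0.695 in Tdrd6-/- samples, and the genotypes overlapped.

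**Figure D4:**
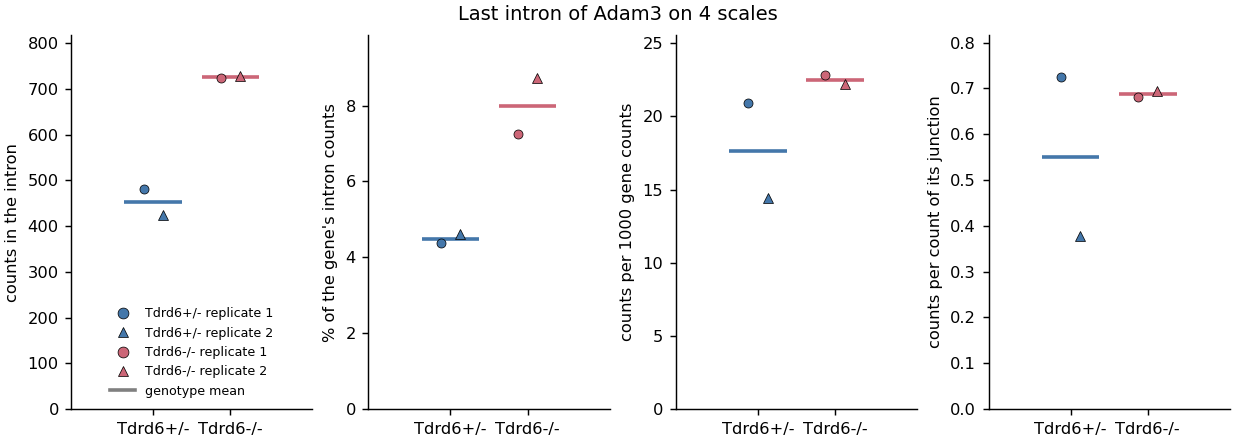
Adam3 intron 1, the last intron of the transcript, as raw counts, as a share of the gene's intron counts, per 1000 gene counts and per count of its own splice junction; points are samples and bars are genotype means. The genotypes are apart on the first 3 scales, with Tdrd6+/- replicate 1 near the Tdrd6-/- samples on the third, and overlap on the last (0.724 and 0.377 against 0.681 and 0.695).

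The other Adam3 introns split the rest. Intron 10 (chr8:24697229-24703749), number 13 in transcript order, had 948 and 671 counts in Tdrd6+/- and 610 and 418 in Tdrd6-/- samples, or 8.61% and 7.30% against 6.12% and 5.02% of the gene's intron counts (log2 -0.55, SE 0.18). The intron with the most reads, intron 18, kept 24.5% and 24.3% in Tdrd6+/- and 27.5% and 24.5% in Tdrd6-/- samples. Shares of 1 gene sum to 100%, so they do not move independently. Intron 2 holds an exon of the small gene Gm26208, and introns 14 to 16 overlap Gm45528, whose reads cannot be told apart from those of the introns.

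Outside Adam3, 4 of the 64 tested introns of the members were called, or 6.25% beside 1.94% of the 28903 introns tested in all (likelihood ratio test of intron usage within the gene in DESeq2, FDR 0.1). One lies in Adam18 and 3 in Adam32, and none of the 16 tested introns of Adam2 or the 17 of Adam5 was called (smallest DESeq2 adjusted p 0.312 and 0.143). Since the genes were chosen with results known, the share is a description. The calls depended on the test: outside Adam3, edgeR's test of usage called 0 introns of the members (2 over all genes), and the DESeq2 test called 0 if Tdrd6+/- replicate 1 or Tdrd6-/- replicate 2 was left out and 7 if Tdrd6-/- replicate 1 was.

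Adam18 intron 18 (chr8:24672129-24674036), the second of the transcript, took a larger share of the gene's intron reads in Tdrd6-/- samples. It had 120 and 166 counts in Tdrd6+/- and 193 and 176 in Tdrd6-/- samples, or 1.92% and 3.37% against 4.96% and 6.23% of the gene's intron counts (log2 1.16, SE 0.27, DESeq2 adjusted p = 0.00547). Per 1000 gene counts it stood at 22.3, 27.6, 31.1 and 25.3, with overlap between genotypes, and against the gene's count the difference did not pass (log2 0.48, DESeq2 adjusted p = 0.415). Of the 19 introns of Adam18, 15 had lower counts per gene count in both Tdrd6-/- samples than in both Tdrd6+/- samples and 0 had higher ones. Over the 120304 introns of all genes with at least 10 counts, 29.1% were lower and 8.94% were higher in this way, and among the 27035 of them with enough counts for the test of usage 42.6% were lower. The most counted intron of the gene, intron 14, had 21.1% and 20.2% against 19.3% and 13.3% of its intron counts, which did not pass the test of usage (log2 -0.43, DESeq2 adjusted p = 0.401), whereas it passed against the gene's count (log2 -0.997, DESeq2 adjusted p = 0.0130).

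Adam32 intron 13 (chr8:24902885-24913958), the ninth of the transcript, went the other way. It had 836 and 397 counts in Tdrd6+/- and 247 and 154 in Tdrd6-/- samples, or 6.47% and 4.75% against 3.22% and 2.40% of the gene's intron counts (log2 -1.03, SE 0.22, DESeq2 adjusted p = 0.00163). Per 1000 gene counts it had 37.4, 14.8, 8.44 and 4.92 counts, so the genotypes did not overlap on that scale either. Tdrd6+/- replicate 1 was far above the other 3 samples. Against the gene's count the difference did not pass (log2 -1.56, DESeq2 adjusted p = 0.167).

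The last intron of Adam32, intron 1 (chr8:24836320-24837782), had 158 and 185 counts in Tdrd6+/- and 225 and 210 in Tdrd6-/- samples, or 1.22% and 2.21% against 2.94% and 3.27% of the gene's intron counts (log2 0.93, SE 0.26, DESeq2 adjusted p = 0.0333). Intron 11 (chr8:24898632-24901441), which lies next to the exon with the zinc-site window, had 2.16% and 2.86% against 3.42% and 5.05% (log2 0.77, SE 0.23, DESeq2 adjusted p = 0.0584). Per 1000 gene counts, intron 1 had 7.06, 6.91, 7.69 and 6.71 counts and intron 11 had 12.5, 8.93, 8.95 and 10.4 counts, with overlap in both. Against the gene's count neither passed (log2 0.35 and 0.18, DESeq2 adjusted p = 0.568 and 0.837). Of the 21 introns of Adam32, 17 had lower counts per gene count in both Tdrd6-/- samples and 0 had higher ones. This stands beside the same 29.1% of all introns, or 42.6% of those with enough counts for the test of usage. The pattern was not particular to Adam18 and Adam32: 17 of 20 introns were lower in Adam2, 12 of 22 in Adam3 and 8 of 21 in Adam5. In Adam3, 1 intron was higher, namely intron 1, which was added for its change in these same samples. The most counted intron, intron 2, had 14.98% and 15.8% against 15.6% and 14.9% of the intron counts.

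**Figure D5:**
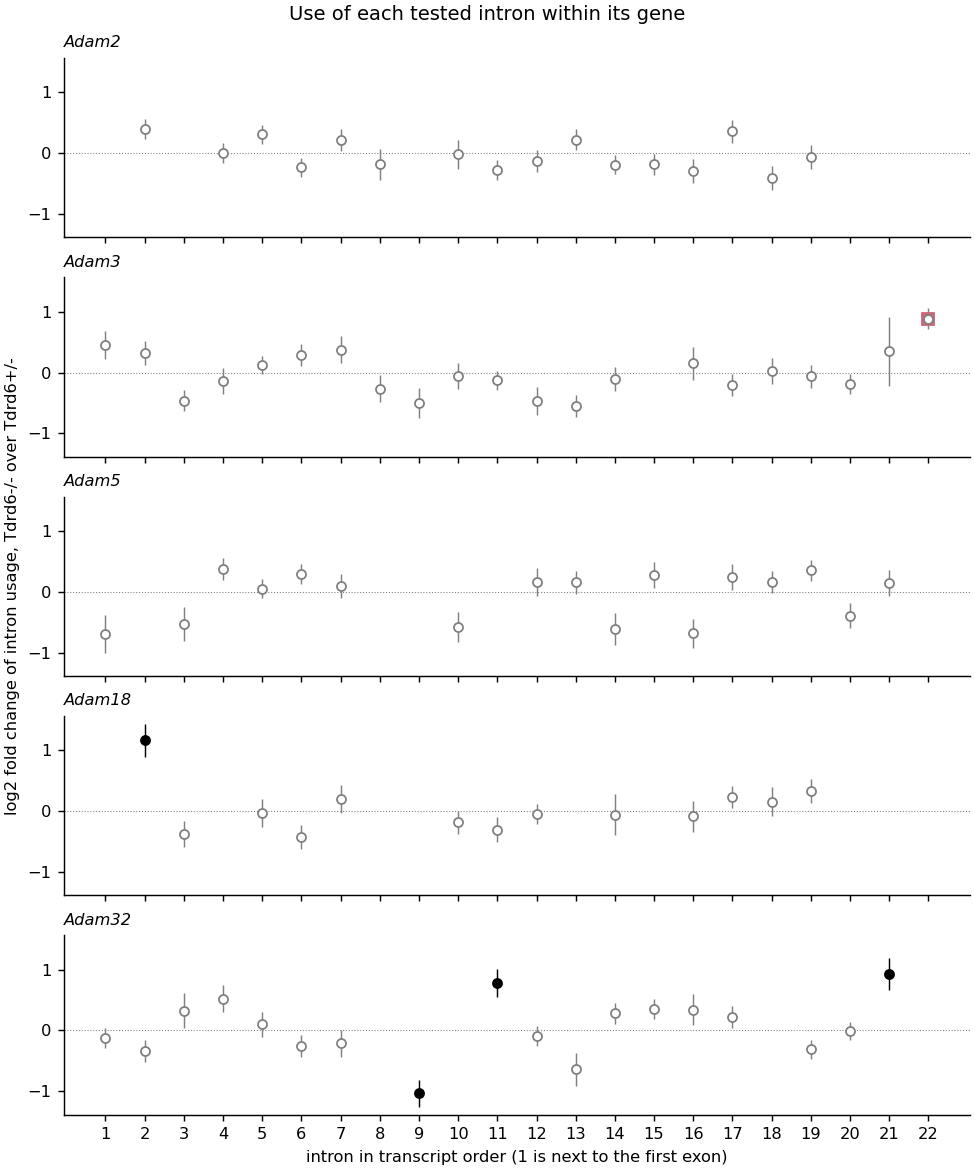
Log2 fold change of intron usage within the gene, Tdrd6-/- over Tdrd6+/-, for each tested intron of 5 members in transcript order; error bars are SE and filled circles, outside Adam3, have a DESeq2 adjusted p under 0.1. Adam3 introns are shown without a test, with the last intron, which was chosen for this value, as a red square, and the 3 filled Adam32 introns point in both directions.

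In Adam2, the most counted intron, intron 15 (the sixth of the transcript), had 20.3% and 17.9% of all Adam2 intron counts for Tdrd6+/- and 17.6% and 15.9% for Tdrd6-/- samples (log2 -0.23, DESeq2 adjusted p = 0.676). Intron 8 of Adam2 holds an exon of Gm10233. In Adam5, the most counted intron was intron 10, with 10.5% and 17.7% against 15.3% and 14.97% (log2 0.16, DESeq2 adjusted p = 0.905). In Adam5 the genotypes overlapped, and in Adam2 the lower Tdrd6+/- value lay within 1 percentage point of the higher Tdrd6-/- value.

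Exon segments and junctions could be tested in Adam2, Adam3, Adam5, Adam18 and Adam32, and not in the other members. In these 5 genes 250 were tested and 0 were called, by the DESeq2 test of usage or by edgeR's test of usage, beside 0.221% of the 147710 tested in all by DESeq2. Of the 250, 10 had an unadjusted p under 0.05 in the DESeq2 test (4.0%, against 4.36% of all), and a further 3 features at that level had too few counts to be among the 250. Of the 10, 6 lie side by side at the 5′ end of Adam5 and were higher in Tdrd6-/-: exon segment 23, with the smallest p, took 6.06% and 6.14% of the gene count in Tdrd6+/- and 7.43% and 7.16% in Tdrd6-/- samples (log2 0.28, SE 0.09, DESeq2 adjusted p = 0.402). Neighbouring segments and junctions share fragments and do not add evidence to each other. Exon segment 28 of Adam32 had 1.04% and 0.66% against 0.56% and 0.54% (log2 -0.61, DESeq2 adjusted p = 0.502), and was called only without Tdrd6+/- replicate 2 (log2 -0.94, DESeq2 adjusted p = 0.0137).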

How the data were processed

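RNA from hCD4+ testis cells was depleted of ribosomal RNA and made into directional libraries. The authors used GSNAP and the mm10 genome for alignment of paired-end fragments, took genes from Ensembl, and deposited raw counts per intron, gene, exon segment and junction. The counting program and its strand setting are not given in the sources used here, so antisense or overlapping genes (Tmem116 spans Adam1b) may share reads. Tallies of fragments outside introns were left out of tests.

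For gene counts, the quasi-likelihood test of edgeR 4.0.16 followed filterByExpr and TMM scaling. Intron, exon segment and junction usage (features with at least 10 counts in total) and intron totals were tested with DEXSeq-type models in DESeq2 1.42.0 (R 4.3.3), because DEXSeq and JunctionSeq were not installed. All used an FDR of 0.1 and a Benjamini-Hochberg adjustment over all features. They were tried on simulated data with the same spread between replicates for every feature. Such runs do not show how the tests behave on the spread of these samples. CPM uses TMM-scaled library sizes. Positions come from GENCODE M21, an annotation other than the Ensembl release behind the counts, with introns matched by their order along the chromosome. The coordinates of the counted introns are not given, so the positions of named introns rest on this match. Log intron length and log count correlated at 0.52 (Adam5) to 0.89 (Adam32) in this order. In reverse order they correlated at -0.30 (Adam18) to 0.10 (Adam2).

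Replicates of 1 genotype differed by more than sampling noise (chi-square per degree of freedom 13.7 and 12.3). Nothing says that they came from separate cell preparations beyond their labels, so p-values measure the spread between these samples. Replicate numbers are not stated to pair samples, and the deviations of same-numbered samples correlated at -0.11 over genes and 0.05 over introns.

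Members, lists and markers were chosen with earlier results of these data known. All members were named. Within a member, every called feature (at most 5), the most counted intron and Adam3 intron 1 were named, and of each list every called gene (at most 4) and the 2 with the highest CPM. Exon segments 2 and 3 of the joined Adam1a row, exon segments 23 of Adam5 and 28 of Adam32, and the single spermatid markers were named after their values were seen. Alternatives covered other tools, scalings, count filters, an FDR of 0.05, a replicate block and leaving out each sample.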

Additional observations from a re-analysis of the deposited data

How the results depend on the processing

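With 2 samples a genotype, counts of calls moved widely. The 1 member gene called became 0 with no filter on low counts (75 genes called in all, against 794), 2 under the crossed replicate block, an alternative chosen after seeing the data, and 0 to 2 when 1 sample was left out (257 to 1064 in all). The 3 genes called in the related lists became 1 with no filter, 6 under the replicate block, 7 under the crossed replicate block and 2 to 7 when 1 sample was left out. The 4 introns called outside Adam3 became 0 with edgeR's usage test (2 of all introns, against 561), 9 against the gene's exonic count (1266), 5 under the replicate block (881) and 0 to 7 when 1 sample was left out (4 to 1136), and an FDR of 0.05 left 3 (338). The 0 exon segments and junctions became 0 to 1 when 1 sample was left out (51 to 762 of all, against 327), and edgeR called 71 of all. The 1 intron total called became 0 to 2 when 1 sample was left out (5 to 144 in all, against 197), and stayed at 1 under the replicate block (107) and at an FDR of 0.05 (117). The log2 ratio of the Adam3 intron 1 share, 0.83, was 0.35 relative to the gene's count and 0.69 to 0.96 with 1 sample left out. Signs turned only in leave-one-out fits, and only for differences that were not called: for expression, Adam1b ranged from -0.071 to 0.29, Adam3 from -0.049 to 0.21, Adam5 from -0.084 to 0.027, Adam18 from -0.092 to 0.045, Adam30 from -0.11 to 0.17 and Adam32 from -0.0022 to 0.16, and for intron totals Adam3 ranged from -0.42 to 0.078 and Adam5 from -0.15 to 0.12. Of 215 values of single genes, introns and exon segments under alternatives, 173 kept direction and call or, for Adam3 introns 1 and 10, which were not tested, moved by less than the spread between replicates. The cause of these moves was not tested, beyond the fewer samples in leave-one-out fits. Beyond the lists, the replicate block changed no member gene's call.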
